A study of Mus musculus with 18 samples.

Results

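CD26- normal mammary fibroblasts (CD26- NFs) of the mouse were compared after 7 days of culture in conditioned medium (CM) of tumor cells and in control medium. The members were all 9 CD26- libraries among the 18 libraries of the series, taken by their labels alone, and they comprised 3 libraries with control medium (replicates 1 to 3) and 6 with CM (replicates 4 to 9). All 9 were bulk poly(A) RNA libraries of cells labelled as FVB/n fibroblasts from the mammary gland. The study's methods describe their donors as adult female mice that were either mTmG reporter animals or animals with floxed alleles but no WapCre, without saying which gave which library. Glands of several mice were pooled, and the cells were sorted as negative for EpCAM, CD49f, CD45, CD31 and CD26 and expanded on collagen before use. Each CM library received CM from a different mouse mammary tumor cell line, namely 13-MCB-17, 10-SJK-221, 18-MCB-12, 13-MCB-44, 13-MCB-90 and 13-MCB-138 for replicates 4 to 9 in that order. The lines came from a mouse model of invasive lobular carcinoma. The routine medium of such lines held EGF, insulin and cholera toxin, whereas the composition of the CM and of the control medium behind these libraries is not given in the sources used here. For a transwell assay, the methods describe CM that tumor cells had conditioned in serum-free medium. The labels do not say that the libraries came from separate sorts or cultures, so p-values measure the spread between these libraries, which may be technical.

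Fibroblasts make and remodel the collagenous matrix of the mammary gland, and within tumors they appear as cancer-associated fibroblasts (CAFs). Cells named myofibroblastic CAFs are known for contractile proteins and matrix, and cells named inflammatory CAFs for cytokines, chemokines and complement. CD26 is dipeptidyl peptidase 4, a surface protease that separates populations of normal fibroblasts. CM carries what tumor cells secrete, so this comparison asked which genes of CD26- NFs differed after exposure to those products.

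The cells carried fibroblast transcripts and lacked Dpp4, but they also carried epithelial ones. Dpp4, the gene of CD26, had 0, 2 and 1 counts in the controls and 1 to 11 counts with CM. Col1a1, the main collagen I chain, stood at 6970.3, 7784 and 6301 CPM in the controls and 2879 to 9687 CPM with CM (median 5260.3 CPM). The summed level of the 13 fibroblast markers tested was 27436 to 30368 CPM in the controls and 17985 to 33307 CPM with CM. Replicate 9 was the only CM library that was not below the controls. Past the test 4 of the 13 rose (Dcn, Lum, Pdgfra and Thy1) and 2 fell (Col3a1 and Fap), with a median log2 difference of -0.0088. No fall was left without control replicate 3. The epithelial keratin gene Krt8 stood at 1259, 1311 and 1109.8 CPM in the controls and 736 to 1201 CPM with CM (median 897 CPM). Epcam, whose product the sort had gated out, stood at 243, 224 and 226 CPM in the controls and 134 to 208 CPM with CM (median 158 CPM). The summed level of the 20 epithelial markers tested was 5369.7 to 6032 CPM in the controls and 3541 to 5753 CPM with CM, and replicate 7 alone of the CM libraries reached the range of the controls. Of those markers only Krt17 fell and only Ehf rose past the test, the rise of Ehf not without control replicate 1, 2 or 3 (edgeR adjusted p up to 0.0842), with a median log2 difference of -0.37 over the list, and DESeq2 called 7 of them lower. Of 20 immune cell markers only 6 passed the filter on low counts, and the summed level of those 6 was 41.7 to 45.8 CPM in the controls and 42.7 to 62.7 CPM with CM. Ptprc of leukocytes had 0 to 3 counts and Cd3e of T cells 0 or 1 in every library. Csf1r, the receptor of macrophage growth factor, had 229 to 310 counts in the controls and 142 to 319 with CM, and Cd68 of macrophages had 24 to 30 and 32 to 48. S100a8, a calgranulin of myeloid cells, was the immune marker that rose (log2 fold change 2.37, SE 0.606, edgeR adjusted p = 0.0143). In CM replicate 9 it lay below the controls, and the call was lost without any 1 of control replicates 1 to 3. The part of immune cells in the results that follow was not tested. Pecam1 of endothelium had 1 to 17, and Adipoq of adipocytes had 0 to 3. These are bulk samples, so fewer cells of a type and less RNA per cell cannot be told apart.

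Total counts ran from 9725723 to 14099859 in the controls and from 11240481 to 13331023 with CM. Values are given in CPM, the counts scaled to the normalized size of each library, and differences as log2 fold changes of CM over control with their standard error (SE) from edgeR's quasi-likelihood model. A gene rose or fell where its Benjamini-Hochberg adjusted p was under 0.05, and it was called well expressed at a mean of 5 CPM or more over the 9 libraries.

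CM was followed by changes in both directions. Of 14273 genes tested, 1125 rose (7.88%) and 1039 fell (7.28%). At an unadjusted p under 0.05, 15.8% of all genes tested were higher and 14.7% lower, against which the unadjusted counts of gene lists given from here on can be read. DESeq2 called 2447 genes in both directions together. Its share of all genes by direction is not given here, so its counts for lists have no such reference. Among the 10573 well-expressed genes, 904 rose (8.55%) and 866 fell (8.19%). A total of 158 well-expressed genes rose and 70 fell by more than 1 on the log2 scale, and 39 rose and 4 fell by more than 2. The mean over the 9 libraries counts 6 of them with CM. With a mean that weights both groups equally, added after seeing the data, 143 rose and 80 fell by more than 1 and 32 rose and 4 fell by more than 2. The median well-expressed gene that rose did so 1.36-fold, and the median one that fell was 1.30-fold lower. For 1471 of the 1770 well-expressed genes called, the CM and control libraries did not overlap, against 20.3% of all genes tested. Groups that do not overlap were also part of the rule that named the genes with the largest changes. For those genes, statements below that the groups were apart follow from that choice. The calls leaned on the controls, since 807 of the 2164 genes were still called without control replicate 3, 1052 without control replicate 1 and 1315 without control replicate 2, and 665 genes held their call in all 9 fits that left out 1 library.

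**Figure D1:**
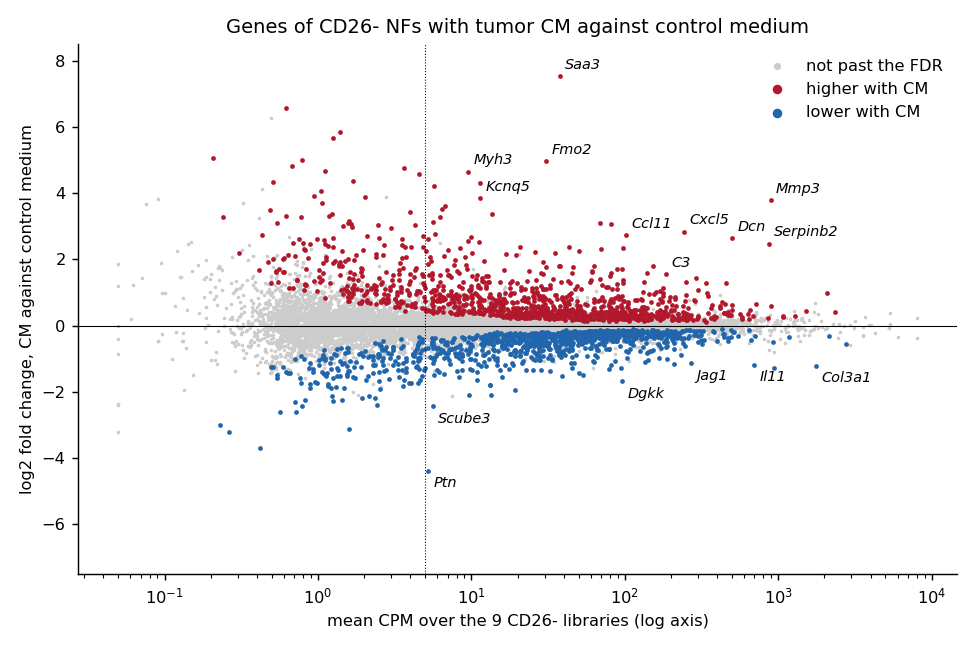
Log2 fold change of CM over control medium (vertical axis) against the mean CPM over the 9 CD26- libraries (horizontal log axis) for the 14273 genes tested, with means under 0.05 CPM drawn at 0.05. Red points rose (1125 genes) and blue points fell (1039 genes), and the dotted line marks 5 CPM, right of which Saa3 and Fmo2 stand highest of the labelled genes and Ptn lowest.

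Complement and acute-phase genes were among those that rose. Saa3, an acute-phase serum amyloid A protein (ENSMUSG00000040026, chr7:46711998-46715700), had 1, 6 and 4 counts in the controls and 129 to 1832 counts with CM. On the CPM scale it stood at 0.0968, 0.512 and 0.271 CPM in the controls and 11.4 to 134 CPM with CM (median 47.03 CPM), with log2 fold change 7.52, SE 1.62, edgeR adjusted p = 0.00555. No CM library came near the controls. Complement and acute-phase genes as a list had 11 of 19 tested members higher and 1 lower, with a median log2 difference of 1.01. C3, the central complement component, stood at 79.6, 78.6 and 85.5 CPM in the controls and 192 to 328 CPM with CM (median 228 CPM, log2 fold change 1.56, SE 0.342, edgeR adjusted p = 0.00621). The classical pathway protease gene C1s1 had 5.32, 5.12 and 4.94 CPM in the controls and 18.1 to 33.7 CPM with CM (median 21.01 CPM, log2 fold change 2.16, SE 0.321, edgeR adjusted p = 0.000455). Serping1, the inhibitor of that protease, had 211, 194 and 219 CPM in the controls and 299 to 554 CPM with CM (median 384 CPM, log2 fold change 0.98, SE 0.207, edgeR adjusted p = 0.00494). The groups overlapped for none of these 4 genes. C1qtnf1, a C1q-like secreted protein, was the member that fell, from 22.7, 16.1 and 19.8 CPM in the controls to between 7.37 and 14.3 CPM with CM (median 8.82 CPM). The list had 7 rises without control replicate 2.

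Chemokines for neutrophils rose with CM. Of 7 CXC ligands tested 4 rose by edgeR and by DESeq2, 5 were higher at an unadjusted p under 0.05, and none was lower by any of these. Cxcl5 (ENSMUSG00000029371, chr5:90759360-90761624) stood at 53.8, 48.2 and 42.2 CPM in the controls and 223 to 510.5 CPM with CM (median 313 CPM), with log2 fold change 2.83, SE 0.325, edgeR adjusted p = 9.33e-05. Cxcl1 had 14.2, 14.9 and 13.9 CPM in the controls and 51.1 to 88.2 CPM with CM (median 66.8 CPM, log2 fold change 2.25, SE 0.288, edgeR adjusted p = 0.000194). Cxcl3 had 5.71, 5.98 and 4.87 CPM in the controls and 16.1 to 41.8 CPM with CM (median 28.4 CPM, log2 fold change 2.36, SE 0.397, edgeR adjusted p = 0.0011). Every CM library was above every control for these genes and for Cxcl2 (log2 fold change 1.48, SE 0.434, edgeR adjusted p = 0.0286). Of these 4 genes Cxcl2 alone lost its call without control replicate 1, 2 or 3 and with the epithelial marker level in the model. Cxcl12, which attracts lymphocytes through CXCR4, was at 38.4, 36.2 and 39.1 CPM in the controls and 36.9 to 126 CPM with CM (median 73.8 CPM) with an edgeR adjusted p of 0.0606, and its groups overlapped.

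Among 10 CC chemokines tested 4 rose and 1, Ccl17, fell, a fall that was lost without control replicate 3. Ccl11, also named eotaxin, had 20.04, 23.1 and 20.7 CPM in the controls and 115 to 191 CPM with CM (median 133 CPM, log2 fold change 2.74, SE 0.263, edgeR adjusted p = 3.16e-05). The monocyte attractants Ccl2 and Ccl7 rose less. Ccl2 went from 147, 148 and 116 CPM in the controls to between 295 and 501 CPM with CM (median 344 CPM, log2 fold change 1.43, SE 0.205, edgeR adjusted p = 0.000362). Ccl7 went from 103, 105 and 87.6 CPM in the controls to between 182 and 268 CPM with CM (median 203 CPM, log2 fold change 1.13, SE 0.162, edgeR adjusted p = 0.000366). The membrane-bound CX3C chemokine Cx3cl1 moved the other way, with 91.1, 80.6 and 88.3 CPM in the controls and 22.4 to 48.6 CPM with CM (median 27.5 CPM, log2 fold change -1.45, SE 0.2803, edgeR adjusted p = 0.00285). Ccl8, the fourth that rose (log2 fold change 1.96, SE 0.462, edgeR adjusted p = 0.00908), lost its call without control replicate 3, at an adjusted p of 0.0547 by the same model.

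Promoters of Cxcl1 and Cxcl3 are shown because they held a known binding motif of NF-kB, the factor that relays interleukin 1 and TNF signals. Of the 8 chemokine genes that rose, Cxcl1, Cxcl2, Cxcl3 and Ccl8 matched a promoter in the table, and that of Ccl8 did not hold these letters. Each run is the 250 bases before the gene's start in GRCm38.p6 as RefSeq gives it, 5′ to 3′ on the strand of the gene, with matches to GGNNTTTCC, a short form of the motif, on either strand in capitals. Cxcl1 is on the plus strand of chr5:90890995-90891244, with matches beginning 89 and 70 bases before the start, and Cxcl3 on the plus strand of chr5:90785851-90786100, with 1 match 72 bases before it.
Cxcl1: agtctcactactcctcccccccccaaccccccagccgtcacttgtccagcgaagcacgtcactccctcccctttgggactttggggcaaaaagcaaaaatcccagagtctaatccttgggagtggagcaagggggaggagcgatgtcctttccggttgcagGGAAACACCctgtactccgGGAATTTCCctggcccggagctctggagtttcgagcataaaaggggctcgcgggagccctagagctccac
Cxcl3: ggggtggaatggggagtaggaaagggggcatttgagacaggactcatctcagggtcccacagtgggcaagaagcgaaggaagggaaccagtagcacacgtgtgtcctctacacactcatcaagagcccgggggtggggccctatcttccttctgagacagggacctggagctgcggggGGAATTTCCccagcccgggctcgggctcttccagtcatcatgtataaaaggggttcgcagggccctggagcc
Within 250 bases before and 50 after the start, 5.82% of the 32851 promoters in the table and 7.39% of the 10670 tested genes matched to one held this motif. It was in 6 of the 17 promoter-matched genes that rose from the chemokine, interleukin 6, complement and NF-kB lists, namely Cxcl1, Cxcl2, Cxcl3, Il6, Saa3 and Steap4. It was also in 8 of 27 matched members of those lists that did not pass the test, among them Nfkbia and Tnfaip3, so the motif did not separate the genes that rose from the rest of their lists. A match is a description of the sequence and not a site of binding.

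Cytokines of the interleukin 6 family split. Il6 stood at 27.9, 23.1 and 26.7 CPM in the controls and 33.4 to 114 CPM with CM (median 80.1 CPM, log2 fold change 1.604, SE 0.318, edgeR adjusted p = 0.0032), with every CM library above the controls. Socs3, the feedback inhibitor of this pathway, went from 23.4, 19.1 and 18.7 CPM in the controls to between 27.9 and 41.5 CPM with CM (median 35.6 CPM, log2 fold change 0.799, SE 0.108, edgeR adjusted p = 0.000273). Il11, of the same family, moved the other way, at 1146, 1183 and 1011 CPM in the controls and 186 to 673 CPM with CM (median 519 CPM, log2 fold change -1.19, SE 0.368, edgeR adjusted p = 0.0369). Its call was lost without any 1 of control replicates 1, 2 or 3 or CM replicates 4, 5, 6 or 8, with adjusted p up to 0.102 by edgeR. Of 13 members tested 4 rose and 3 fell, and none of the 3 that fell, which include Clcf1 and Stat3, held its call in every fit that left out 1 library.

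The interleukin 1 and TNF list had 4 of 17 members higher and 3 lower, with a median log2 difference of 0.0066, and of the 17, 4 were higher and 6 lower at an unadjusted p under 0.05. The falls were those of Il18, an interleukin 1 family cytokine (log2 fold change -0.83, edgeR adjusted p = 0.00746), of Tnfsf10, the ligand TRAIL, and of Tnfrsf11b, osteoprotegerin, and 1 of the 3 was left without any 1 of control replicates 1 to 3 or CM replicates 4, 5, 6 or 8. The rises numbered 2 without control replicate 3. Il1a stood at 6.29, 9.05 and 7.11 CPM in the controls and 18.9 to 51.3 CPM with CM (median 32.2 CPM, log2 fold change 2.23, SE 0.355, edgeR adjusted p = 0.000722). Il1rap, the co-receptor of the interleukin 1 receptors, was at 52.3, 54.7 and 54.9 CPM in the controls and 77.5 to 113 CPM with CM (median 95.5 CPM, log2 fold change 0.82, SE 0.117, edgeR adjusted p = 0.000362). Il1rl1, the receptor of interleukin 33, went from 1243, 1341 and 1195 CPM in the controls to between 1786 and 2971 CPM with CM (median 2606 CPM, log2 fold change 0.98, SE 0.234, edgeR adjusted p = 0.01), and without control replicate 3 its adjusted p was 0.0602 by edgeR. Of 7 myeloid growth factors tested 4 rose and none fell, by edgeR, by DESeq2 or at an unadjusted p under 0.05. The rises numbered 2 without control replicate 3. Kitl, the ligand of the receptor Kit, had 44.6, 45.2 and 48.5 CPM in the controls and 73.03 to 139 CPM with CM (median 116 CPM, log2 fold change 1.26, SE 0.251, edgeR adjusted p = 0.00337). Tslp, thymic stromal lymphopoietin, had 8.71, 13.2 and 8.66 CPM in the controls and 13.2 to 34.1 CPM with CM (median 23.6 CPM, log2 fold change 1.28, SE 0.232, edgeR adjusted p = 0.00193). Csf1, the macrophage growth factor, was at 1924, 2038 and 1824 CPM in the controls and 2141 to 2921 CPM with CM (median 2594 CPM, log2 fold change 0.403, SE 0.0985, edgeR adjusted p = 0.0111), and its edgeR adjusted p was 0.0754 without control replicate 3.

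The NF-kB list had 2 of 17 members higher and 1 lower by edgeR, 5 higher and 1 lower by DESeq2, and 7 higher and 1 lower at an unadjusted p under 0.05. The rises by edgeR numbered 1 in every fit that left out 1 library, except that without CM replicate 7. They also numbered 1 with the epithelial marker level in the model. Nfkbiz, an inducible nuclear member of the IkB family, had 30.9, 24.6 and 25.4 CPM in the controls and 43.8 to 55.7 CPM with CM (median 51.8 CPM, log2 fold change 0.93, SE 0.1304, edgeR adjusted p = 0.000348). Prostaglandin genes had 5 of 15 members higher by edgeR, 6 by DESeq2 and 7 at an unadjusted p under 0.05, and none was lower by any of these. Ptges, the terminal synthase of prostaglandin E2, stood at 65.9, 69.2 and 67.2 CPM in the controls and 119 to 202 CPM with CM (median 183 CPM, log2 fold change 1.31, SE 0.247, edgeR adjusted p = 0.00239). Ptgir, the prostacyclin receptor, had 11.4, 13.2 and 11.8 CPM in the controls and 23.04 to 51.3 CPM with CM (median 37.96 CPM, log2 fold change 1.59, SE 0.272, edgeR adjusted p = 0.00129). Vcam1, an adhesion molecule for leukocytes, went from 32.6, 34.8 and 37.4 CPM in the controls to between 77.2 and 132 CPM with CM (median 101 CPM, log2 fold change 1.58, SE 0.178, edgeR adjusted p = 8.75e-05). All CM libraries exceeded all controls for these 4 genes.

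**Figure D2:**
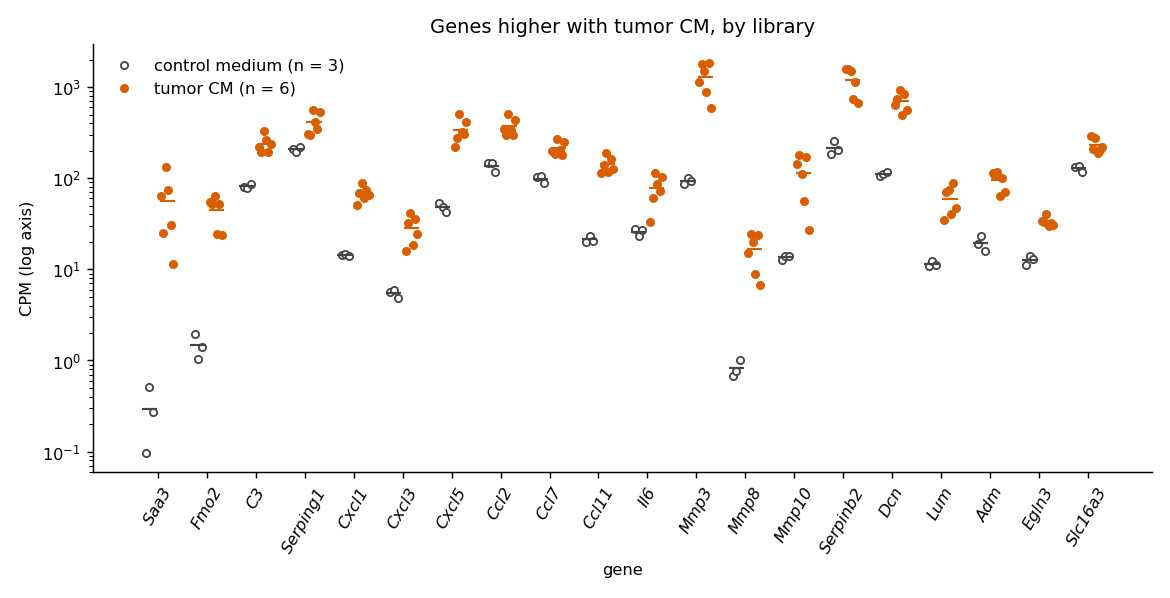
CPM in each library (log axis) of 20 genes that were higher with CM, with open circles for the 3 control libraries, filled circles for the 6 CM libraries and a short line at each group's mean. For each of the 20 genes the lowest CM library stands above the highest control library. Groups that do not overlap were part of the rule that named some of them, among them Fmo2, C3 and Mmp10.

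Among interferon-stimulated genes falls outnumbered rises. Of 28 tested, 10 fell and 1 rose, with a median log2 difference of -0.75, and 20 had an unadjusted p under 0.05 in the lower direction. Most were expressed at low levels. Ddx58, the RNA sensor RIG-I, was lower at 77.2, 57.5 and 65.2 CPM in the controls and 43.97 to 49.9 CPM with CM (median 47.6 CPM, log2 fold change -0.4996, SE 0.0718, edgeR adjusted p = 0.000362). Gbp3, an interferon-induced guanylate-binding protein, stood at 5.42, 2.73 and 5.69 CPM in the controls and 0.842 to 2.03 CPM with CM (median 1.41 CPM, log2 fold change -1.69, SE 0.265, edgeR adjusted p = 0.000665). Ifih1, the sensor MDA5, was at 19.2, 12.9 and 16.1 CPM in the controls and 8.27 to 11.7 CPM with CM (median 9.11 CPM, log2 fold change -0.73, SE 0.196, edgeR adjusted p = 0.0186). No CM library reached the controls for these genes, although Ifih1 lost its call without control replicate 1 or 3, at adjusted p of 0.116 and 0.0777 by edgeR. Ifit2 was the member that rose, at 10.3, 10.6 and 11.4 CPM in the controls and 13.9 to 19.7 CPM with CM (median 15.5 CPM, log2 fold change 0.58, SE 0.128, edgeR adjusted p = 0.00661). The count of falls was 2 without control replicate 1, 3 without control replicate 3 and 18 without CM replicate 9, and it was 5 with the epithelial marker level in the model. The summed level of the list was 371.6, 254.9 and 316.3 CPM in control replicates 1 to 3 and 192.6 to 265.5 CPM with CM. The groups overlapped, with CM replicate 9 above control replicate 2.

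The promoter of Gbp3 is shown for the interferon-stimulated response element, here searched as TTTCNNTTT on both strands and set in capitals. The 250 bases before its start lie on the plus strand of chr3:142559794-142560043, with overlapping matches that begin 45 and 39 bases before the start.
Gbp3: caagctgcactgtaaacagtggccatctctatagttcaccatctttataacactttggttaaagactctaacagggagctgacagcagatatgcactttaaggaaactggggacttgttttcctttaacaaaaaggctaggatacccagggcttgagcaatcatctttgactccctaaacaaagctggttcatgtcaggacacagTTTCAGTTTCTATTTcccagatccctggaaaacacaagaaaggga
The motif was in 9.38% of tested genes matched to a promoter and in 7 of the 9 matched members that fell, namely Ddx58, Gbp2, Gbp3, Gbp7, Ifi44, Ifih1 and Irgm1. It was in 10 of the 13 matched members that did not pass the test, Isg15 and Ifit1 included.

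Antigen presentation by MHC class I had 1 of 16 members higher and 3 lower. The member that rose was H2-T22, a non-classical MHC gene, at 13.2, 12.98 and 11.98 CPM in the controls and 28.1 to 48.1 CPM with CM (median 36.6 CPM, log2 fold change 1.56, SE 0.185, edgeR adjusted p = 0.000119), and near-identical copies of this family may share reads. Tapbp, the chaperone tapasin, was lower at 117, 96.5 and 105 CPM in the controls and 54.05 to 92.6 CPM with CM (median 57.5 CPM, log2 fold change -0.71, SE 0.164, edgeR adjusted p = 0.0081). Erap1, a peptide-trimming protease, was lower at 49.3, 46.6 and 51.4 CPM in the controls and 25.3 to 39.6 CPM with CM (median 29.6 CPM, log2 fold change -0.65, SE 0.121, edgeR adjusted p = 0.00223). Without control replicate 1, the edgeR adjusted p of Tapbp was 0.0548, and 1 of the 3 falls was left.

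Among matrix metalloproteinases the largest rises were those of stromelysins and a collagenase that lie together on chromosome 9. Mmp3, stromelysin 1 (ENSMUSG00000043613, chr9:7445822-7455975), stood at 87.1, 101 and 93.9 CPM in the controls and 588 to 1818 CPM with CM (median 1331 CPM), with log2 fold change 3.78, SE 0.729, edgeR adjusted p = 0.00273, a ratio of mean CPM of 13.7. Mmp8, the neutrophil collagenase, had 0.678, 0.769 and 1.02 CPM in the controls and 6.81 to 24.6 CPM with CM (median 17.5 CPM, log2 fold change 4.29, SE 0.605, edgeR adjusted p = 0.000348). Mmp10, stromelysin 2, had 12.8, 14.2 and 14.01 CPM in the controls and 27.1 to 182 CPM with CM (median 127 CPM, log2 fold change 3.08, SE 0.824, edgeR adjusted p = 0.0186), and its call was lost without control replicate 1, 2 or 3, with adjusted p up to 0.0841 by edgeR. The list of metalloproteinases had 8 of 19 members higher and 3 lower. Mmp19 rose from 51.9, 49.8 and 48.4 CPM in the controls to between 64.02 and 94.97 CPM with CM (median 88.02 CPM, log2 fold change 0.75, SE 0.0972, edgeR adjusted p = 0.000214). The gelatinase Mmp2 rose from 333, 318 and 319 CPM in the controls to between 414 and 515 CPM with CM (median 463 CPM, log2 fold change 0.52, SE 0.0972, edgeR adjusted p = 0.00239). The other gelatinase, Mmp9, was lower at 300.4, 270.3 and 273 CPM in the controls and 103 to 204 CPM with CM (median 131 CPM, log2 fold change -1.01, SE 0.313, edgeR adjusted p = 0.038), a call that stayed only without CM replicate 7. No group overlapped for these 6 genes. Without control replicate 3 the list had 5 members higher, and without control replicate 1 it had none lower, with Mmp9 at an adjusted p of 0.12 by edgeR. Of 13 protease inhibitors, Serpinb2, plasminogen activator inhibitor 2, rose from 186, 255 and 206 CPM in the controls to between 673 and 1571 CPM with CM (median 1319 CPM, log2 fold change 2.47, SE 0.518, edgeR adjusted p = 0.00461), with every CM library above every control.

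Small leucine-rich proteoglycans, which bind collagen fibrils, split into risen and fallen members. Dcn, decorin (ENSMUSG00000019929, chr10:97479609-97518143), stood at 106, 112 and 117 CPM in the controls and 492 to 935 CPM with CM (median 684 CPM, log2 fold change 2.64, SE 0.299, edgeR adjusted p = 8.75e-05). Lum, lumican, was at 10.8, 12.3 and 11.2 CPM in the controls and 34.6 to 88.4 CPM with CM (median 59.03 CPM, log2 fold change 2.38, SE 0.417, edgeR adjusted p = 0.00154). Prelp was at 2.32, 3.16 and 3.32 CPM in the controls and 6.595 to 19.97 CPM with CM (median 15.4 CPM, log2 fold change 2.197, SE 0.393, edgeR adjusted p = 0.0017). All 3 held their call in every fit that left out 1 library. Aspn, asporin, moved the other way, at 18.3, 18.4 and 22.5 CPM in the controls and 1.78 to 9.23 CPM with CM (median 3.43 CPM, log2 fold change -2.09, SE 0.523, edgeR adjusted p = 0.0128), with an edgeR adjusted p of 0.0664 without control replicate 3. Of the 22 proteoglycan and hyaluronan genes tested, 4 rose and 2 fell. The fourth that rose was Cemip, a hyaluronan-degrading protein, at 222, 263 and 216 CPM in the controls and 371 to 885 CPM with CM (median 464 CPM, log2 fold change 1.27, SE 0.282, edgeR adjusted p = 0.0065). Hyal1, a lysosomal hyaluronidase, fell from 13.3, 13.4 and 13.8 CPM in the controls to between 5.28 and 10.9 CPM with CM (median 6.85 CPM, log2 fold change -0.86, SE 0.205, edgeR adjusted p = 0.0101), with an adjusted p of 0.0567 without control replicate 3 in the same model.

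Fibrillar collagens had 3 of 19 members higher and 2 lower, with 1 rise left without control replicate 3 and no fall without control replicate 1. Col24a1, a minor fibrillar collagen, stood at 1.16, 1.196 and 1.15 CPM in the controls and 6.101 to 11.9 CPM with CM (median 7.19 CPM, log2 fold change 2.78, SE 0.333, edgeR adjusted p = 0.000123). Col3a1 was lower at 2729, 2817 and 2983 CPM in the controls and 617 to 2278 CPM with CM (median 1072 CPM, log2 fold change -1.205, SE 0.389, edgeR adjusted p = 0.0447), and its call was lost without any of control replicates 1 to 3 or CM replicates 4, 5, 6 or 8, with adjusted p up to 0.137 by edgeR. Col1a1, with a log2 difference of -0.33 and an edgeR adjusted p of 0.51, ranged more widely among the CM libraries than among the controls. Acta2, the smooth muscle actin of myofibroblasts, was likewise at 2855, 2912 and 2851 CPM in the controls and 1456 to 3321 CPM with CM (median 2049 CPM), with an edgeR adjusted p of 0.426.

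Basement membrane chains had 4 of 23 members lower by edgeR and 6 by DESeq2 and none higher by either, and 8 lower and 1 higher at an unadjusted p under 0.05. Lamc3, a laminin gamma chain, stood at 39.4, 39.2 and 35.3 CPM in the controls and 8.81 to 22.02 CPM with CM (median 13.2 CPM, log2 fold change -1.35, SE 0.2399, edgeR adjusted p = 0.00164). Lama3, the alpha chain of laminin 332, was at 245, 246 and 259 CPM in the controls and 96.7 to 160.3 CPM with CM (median 125 CPM, log2 fold change -0.98, SE 0.256, edgeR adjusted p = 0.0165). Col18a1 had 248, 219.9 and 217 CPM in the controls and 110.3 to 174 CPM with CM (median 137 CPM, log2 fold change -0.67, SE 0.172, edgeR adjusted p = 0.0152). No CM library reached the controls for these genes. The list had 1 call without control replicate 1 or control replicate 3, leaving out Lama3 and Col18a1, and 10 without CM replicate 9. Laminin 332 is also a product of epithelium, whose markers were lower in 5 of the 6 CM libraries than in any control. The summed fibroblast markers were likewise below the controls in every CM library except replicate 9. With the epithelial marker level in the model 4 basement membrane members were lower, and the log2 difference of Lama3 was -0.64 in place of -0.98. The part of epithelial cells in these falls was not tested.

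Matricellular and elastic fiber glycoproteins had 3 of 33 members lower and 1 higher by edgeR, 4 lower and 6 higher by DESeq2, and 7 lower and 10 higher at an unadjusted p under 0.05, with a median log2 difference of -0.076. Without control replicate 3 there was 1 fall and no rise, and without CM replicate 9 there were 7 falls. The member that rose was Tnxb, tenascin X, at 8.04, 7.94 and 7.04 CPM in the controls and 13.7 to 21.9 CPM with CM (median 19.7 CPM, log2 fold change 1.32, SE 0.298, edgeR adjusted p = 0.00717). Postn, periostin, stood at 1461, 1478 and 1714 CPM in the controls and 372 to 1042 CPM with CM (median 514 CPM, log2 fold change -1.29, SE 0.347, edgeR adjusted p = 0.0195), with adjusted p of 0.0537 and 0.0852 by edgeR without control replicates 1 and 3. Eln, elastin, stood at 19.3, 18.4 and 21.8 CPM in the controls and 2.95 to 14.9 CPM with CM (median 5.25 CPM, log2 fold change -1.63, SE 0.458, edgeR adjusted p = 0.024), and its adjusted p reached 0.0991 by edgeR without control replicate 3, with the call also lost without control replicates 1 and 2 and CM replicate 5. Enzymes of collagen crosslinking and processing had 4 of 18 members lower and 1 higher. The latter was Loxl1, a lysyl oxidase, at 197, 207 and 155 CPM in the controls and 207 to 277 CPM with CM (median 239 CPM, log2 fold change 0.35, SE 0.1002, edgeR adjusted p = 0.0246). Its groups overlapped, and its call was lost without control replicate 1 or 3. Without control replicate 1, 2 or 3 the falls numbered 2, and without CM replicate 9 they numbered 8. Cthrc1, a secreted collagen triple helix repeat protein, went from 151, 154 and 160.1 CPM in the controls to between 44.4 and 88.4 CPM with CM (median 55.5 CPM, log2 fold change -1.29, SE 0.2299, edgeR adjusted p = 0.00168). Pcolce2, an enhancer of procollagen processing and a member of the enzyme list, fell from 20.9, 21.2 and 21.9 CPM in the controls to between 9.26 and 14.3 CPM with CM (median 10.2 CPM, log2 fold change -1.0005, SE 0.209, edgeR adjusted p = 0.0046). Neither Cthrc1 nor Pcolce2 lost its call when any library was left out.

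**Figure D3:**
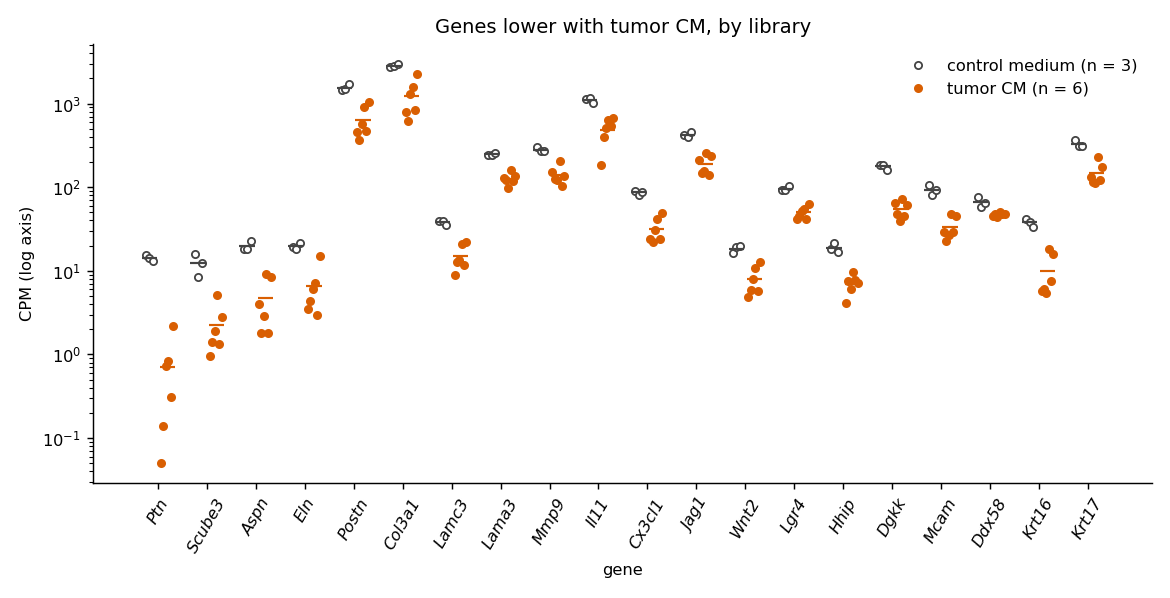
CPM in each library (log axis) of 20 genes that were lower with CM, with open circles for the 3 control libraries, filled circles for the 6 CM libraries, a short line at each group's mean, and a CM library at 0 counts of Ptn drawn at 0.05 CPM. For each of the 20 genes the highest CM library stands below the lowest control library, and Ptn shows the widest gap. Groups that do not overlap were part of the rule that named the genes with the largest falls.

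Genes of glycolysis and of the hypoxia response rose together in number. Of 32 tested, 16 rose and 1 fell, with a median log2 difference of 0.32, and in all 16 the groups did not overlap. Adm, the vasodilator peptide adrenomedullin (ENSMUSG00000030790, chr7:110627661-110629820), stood at 18.8, 23.1 and 15.8 CPM in the controls and 64.1 to 118 CPM with CM (median 102 CPM, log2 fold change 2.31, SE 0.401, edgeR adjusted p = 0.00142). Egln3, an oxygen-sensing prolyl hydroxylase, had 11.1, 14.1 and 12.99 CPM in the controls and 30.2 to 40.2 CPM with CM (median 32.6 CPM, log2 fold change 1.38, SE 0.264, edgeR adjusted p = 0.00259). Slc16a3, the lactate exporter MCT4, had 133, 135 and 116 CPM in the controls and 188 to 289.8 CPM with CM (median 215 CPM, log2 fold change 0.85, SE 0.154, edgeR adjusted p = 0.00174). Pfkl, a phosphofructokinase subunit, rose from 163, 173 and 149 CPM in the controls to between 216 and 291 CPM with CM (median 230.0 CPM, log2 fold change 0.58, SE 0.103, edgeR adjusted p = 0.00162). The smallest rise in the list was 0.25 on the log2 scale. Ldha, lactate dehydrogenase A, named here after its values were seen, stood at 1181, 1240.2 and 1218 CPM in the controls and 1415 to 1938 CPM with CM (median 1679 CPM, log2 fold change 0.45, SE 0.0929, edgeR adjusted p = 0.00435). Pfkfb4, which makes an activator of phosphofructokinase, was the member that fell, at 55.7, 57.1 and 59.7 CPM in the controls and 32.9 to 47.7 CPM with CM (median 38.1 CPM, log2 fold change -0.54, SE 0.122, edgeR adjusted p = 0.00704). The summed level of the list was 8068 to 8444 CPM in the controls and 9428 to 11609 CPM with CM. Vegfa, also named after its values were seen, was at 373, 348 and 336 CPM in the controls and 427 to 484 CPM with CM (median 445 CPM) with an edgeR adjusted p of 0.089. The core letters of the hypoxia response element, ACGTG on both strands, were in 29.1% of tested genes matched to a promoter, in 9 of 16 matched members that rose and in 11 of 13 that did not pass the test. The count of rises was lowest without control replicate 3, at 11.

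Iron-handling genes and metalloreductases had 9 of 16 members higher and none lower past the test. Steap4, a metalloreductase of inflamed tissue, stood at 0.871, 0.512 and 1.02 CPM in the controls and 2.299 to 13.4 CPM with CM (median 9.81 CPM, log2 fold change 3.51, SE 0.798, edgeR adjusted p = 0.00742). Hmox1, the heme-degrading oxygenase, had 140.2, 146 and 128 CPM in the controls and 222 to 301 CPM with CM (median 239.8 CPM, log2 fold change 0.86, SE 0.137, edgeR adjusted p = 0.000704). Fth1, the ferritin heavy chain, rose from 645, 692 and 671 CPM in the controls to between 927 and 1088 CPM with CM (median 1013 CPM, log2 fold change 0.5995, SE 0.08204, edgeR adjusted p = 0.0003), and no CM library of these genes fell into the range of the controls. Slc11a2, the iron transporter DMT1, had 59.7, 62.2 and 64.6 CPM in the controls and 82.3 to 99.5 CPM with CM (median 89.4 CPM, log2 fold change 0.54, SE 0.0607, edgeR adjusted p = 8.75e-05). The groups did not overlap for Slc11a2 either. Without control replicate 3 the list had 6 calls. At an unadjusted p under 0.05, 2 members were lower, and DESeq2 called none lower. Among antioxidant enzymes, of which 4 of 27 rose and 4 fell (2 without control replicate 1 or 2), mitochondrial Sod2 went from 44.4, 48.1 and 46.5 CPM in the controls to between 86.6 and 128 CPM with CM (median 93.5 CPM, log2 fold change 1.11, SE 0.1598, edgeR adjusted p = 0.000366). Gclc, which limits glutathione synthesis, fell from 101, 103 and 101 CPM in the controls to between 65.6 and 83.6 CPM with CM (median 73.4 CPM, log2 fold change -0.46, SE 0.0793, edgeR adjusted p = 0.00146).

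**Figure D4:**
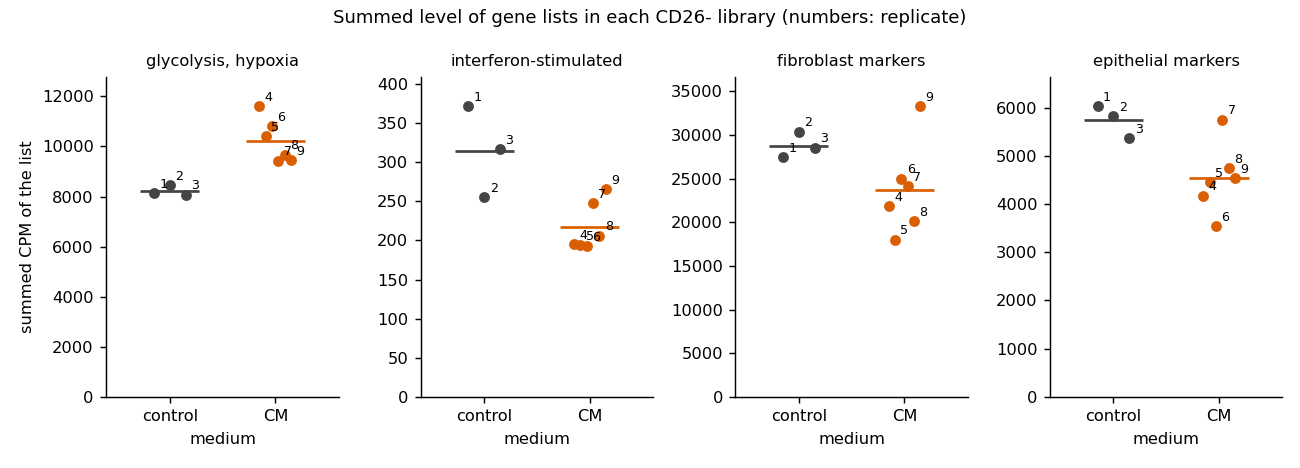
Summed CPM (vertical axes from 0) of the glycolysis and hypoxia, interferon-stimulated, fibroblast marker and epithelial marker lists in each CD26- library, numbered by replicate, with a line at each group's mean. The CM libraries stand above all controls for glycolysis and hypoxia (9428 to 11609 against 8068 to 8444 CPM), while for epithelial markers replicate 7 at 5753 CPM lies within the controls and the other CM libraries below them. For fibroblast markers replicate 9 at 33307 CPM lies above the controls (27436 to 30368 CPM) and the other CM libraries below them.

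Skeletal muscle genes rose at low levels. Of 21 tested, 15 rose by edgeR, 16 by DESeq2 and 17 at an unadjusted p under 0.05, and none was lower by any of these. A total of 11 members, all of which rose, had 10 or fewer counts in every control library. They could pass the filter on low counts only through other libraries, so their number is no measure of how much of the list rose. Of the other 10 members 4 rose, and of the 5 well-expressed members 3 rose. Those 3, Myh3, Actc1 and Chrna1, had control means of 0.590, 0.447 and 1.17 CPM. They reached a mean of 5 CPM only through the CM libraries. Myh3, embryonic myosin heavy chain (ENSMUSG00000020908, chr11:67078300-67102291), had 10, 7 and 3 counts in the controls and 78 to 446 counts with CM, or 0.968, 0.598 and 0.203 CPM in the controls and 5.47 to 34.6 CPM with CM (median 10.1 CPM, log2 fold change 4.65, SE 0.807, edgeR adjusted p = 0.00437). Actc1, cardiac alpha-actin, which early skeletal muscle also makes, had 0.678, 0.256 and 0.406 CPM in the controls and 3.98 to 19.9 CPM with CM (median 5.63 CPM, log2 fold change 4.22, SE 0.6501, edgeR adjusted p = 0.000602). Chrna1, a subunit of the muscle acetylcholine receptor, had 1.45, 0.854 and 1.22 CPM in the controls and 3.54 to 14.7 CPM with CM (median 6.101 CPM, log2 fold change 2.61, SE 0.423, edgeR adjusted p = 0.000819). Every CM library was above every control for all 15 genes that rose. For the 11 with few counts in the controls, the filter on low counts partly fixed this. The myogenic regulators, named here after their values were seen, were nearly absent from the controls. Myod1 had 0, 1 and 0 counts and Mymk, a myoblast fusion protein, 0, 0 and 1 counts in the controls, against 7 to 62 and 10 to 57 counts with CM, and Myog had 1, 2 and 4 counts against 16 to 186. Acta1, skeletal alpha-actin, was not among the genes that rose, at 73.7, 67.98 and 47.3 CPM in the controls and 36.9 to 66.05 CPM with CM (median 46.7 CPM), and carried 65% of the list's counts in the controls and 33% with CM, and the summed levels of the list overlapped (77.8 to 113 CPM in the controls and 95.6 to 248 CPM with CM). The count was lowest without control replicate 3, at 11.

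Of 26 smooth muscle and stress fiber genes tested, 1 rose and 1 fell, with a median log2 difference of -0.07. The gene that rose, Des, encodes desmin, the intermediate filament of muscle, and stood at 1.06, 0.939 and 0.744 CPM in the controls and 2.597 to 19.2 CPM with CM (median 7.79 CPM, log2 fold change 3.28, SE 0.537, edgeR adjusted p = 0.000885). Smtn, smoothelin, was lower at 148, 141 and 121 CPM in the controls and 88.4 to 124 CPM with CM (median 99.4 CPM, log2 fold change -0.399, SE 0.1201, edgeR adjusted p = 0.0329), and held its call only without control replicate 3, CM replicate 7 or CM replicate 9.

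Growth factor and morphogen pathways held changes in both directions. In the Wnt list 9 of 39 members fell and 3 rose. Lgr4, a receptor of R-spondins, stood at 92.6, 92.3 and 104 CPM in the controls and 41.5 to 63.8 CPM with CM (median 49.1 CPM, log2 fold change -0.94, SE 0.137, edgeR adjusted p = 0.000373). The receptor gene Fzd6 was lower at 69.3, 58.9 and 70.997 CPM in the controls and 26.3 to 46.7 CPM with CM (median 34.5 CPM, log2 fold change -0.94, SE 0.179, edgeR adjusted p = 0.00262). The ligand gene Wnt2 fell from 16.4, 19.05 and 19.97 CPM in the controls to between 4.804 and 12.9 CPM with CM (median 6.899 CPM, log2 fold change -1.22, SE 0.234, edgeR adjusted p = 0.00273). An antagonist gene, Dkk2, fell beside the receptors and the ligand, at 10.6, 13.3 and 13.7 CPM in the controls and 5.49 to 7.65 CPM with CM (median 6.63 CPM, log2 fold change -0.92, SE 0.188, edgeR adjusted p = 0.00405). Nkd2, an inhibitor of the pathway, rose from 43.4, 41.9 and 41.1 CPM in the controls to between 64.3 and 83.4 CPM with CM (median 74.3 CPM, log2 fold change 0.81, SE 0.1799, edgeR adjusted p = 0.00677). Ror2, a receptor of Wnt5a, rose from 27.9, 26.7 and 26.3 CPM in the controls to between 34.5 and 44.6 CPM with CM (median 37.8 CPM, log2 fold change 0.52, SE 0.0747, edgeR adjusted p = 0.000362). The groups did not overlap for these 6 genes, and the falls numbered 5 without control replicate 3.

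Hedgehog genes had 2 of 14 members higher and 3 lower. Scube3, a secreted protein that binds Hedgehog and TGF-beta family ligands, stood at 15.9, 8.54 and 12.4 CPM in the controls and 0.961 to 5.104 CPM with CM (median 1.65 CPM, log2 fold change -2.44, SE 0.331, edgeR adjusted p = 0.00028). Hhip, the Hedgehog-binding inhibitor and target, was lower at 18.4, 21.3 and 16.6 CPM in the controls and 4.16 to 9.68 CPM with CM (median 7.29 CPM, log2 fold change -1.41, SE 0.318, edgeR adjusted p = 0.00717). Gas1, a co-receptor, went from 18.6, 17.3 and 15.6 CPM in the controls to between 24.6 and 39.7 CPM with CM (median 32.7 CPM, log2 fold change 0.92, SE 0.145, edgeR adjusted p = 0.000657). Ptch1, the receptor and a target, rose from 28.8, 30.5 and 29.4 CPM in the controls to between 37.6 and 41.6 CPM with CM (median 39.1 CPM, log2 fold change 0.41, SE 0.0937, edgeR adjusted p = 0.0077). In the Notch list, of which 4 of 15 fell and 2 rose, the ligand gene Jag1 went from 416, 395 and 456 CPM in the controls to between 139.6 and 258 CPM with CM (median 185 CPM, log2 fold change -1.14, SE 0.225, edgeR adjusted p = 0.00314). Lfng, which modifies Notch receptors, fell from 13.6, 12.8 and 12.9 CPM in the controls to between 5.999 and 10.2 CPM with CM (median 8.23 CPM, log2 fold change -0.71, SE 0.151, edgeR adjusted p = 0.00521). Dlk2, a non-canonical ligand, rose from 3.49, 2.14 and 2.44 CPM in the controls to between 5.78 and 8.49 CPM with CM (median 6.62 CPM, log2 fold change 1.397, SE 0.216, edgeR adjusted p = 0.000602). None of these 7 genes lost its call when any library was left out.

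The TGF-beta and BMP list had 6 of 35 members higher and 5 lower. The co-receptor gene Tgfbr3, betaglycan, stood at 84.8, 87.5 and 82.2 CPM in the controls and 107 to 179.6 CPM with CM (median 151 CPM, log2 fold change 0.81, SE 0.121, edgeR adjusted p = 0.000455). Bmpr1a, a BMP receptor, was lower at 186, 192 and 209 CPM in the controls and 147 to 165 CPM with CM (median 155 CPM, log2 fold change -0.32, SE 0.0526, edgeR adjusted p = 0.000899). The ligand genes Tgfb1 and Tgfb3 were lower, at log2 differences of -0.51 and -0.796, and both lost the call without control replicates 1 and 2, Tgfb3 also without control replicate 3, with adjusted p up to 0.0716 and 0.0933 by edgeR. The list had 3 rises and 2 falls without control replicate 1 and 5 rises and 10 falls without CM replicate 9.

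Ligands for epithelial growth factor receptors went both ways. Fgf7, which signals to epithelium, stood at 127, 140.4 and 138 CPM in the controls and 176 to 276 CPM with CM (median 224 CPM, log2 fold change 0.73, SE 0.105, edgeR adjusted p = 0.000362). Fgf10 was at 46.8, 48.8 and 43.9 CPM in the controls and 65.6 to 102 CPM with CM (median 71.8 CPM, log2 fold change 0.78, SE 0.124, edgeR adjusted p = 0.000736). Nrg1, the ErbB3 and ErbB4 ligand neuregulin 1, had 27.6, 31.4 and 28.6 CPM in the controls and 48.9 to 75.3 CPM with CM (median 65.7 CPM, log2 fold change 1.12, SE 0.157, edgeR adjusted p = 0.000348). Spry2, a feedback inhibitor of receptor tyrosine kinases, had 31.6, 34.5 and 28.3 CPM in the controls and 38.7 to 52.4 CPM with CM (median 46.3 CPM, log2 fold change 0.55, SE 0.0915, edgeR adjusted p = 0.00101). The groups were apart for these 4 genes. Of 15 FGF and HGF genes 5 rose and 1 fell, and of 26 EGF family and ERK feedback genes 8 rose and 2 fell, the former list with 3 rises without control replicate 3 and the latter with 2 rises and no fall without control replicate 1 or 3. The 2 that fell are ligands of the EGF receptor. Epgn, epigen, was at 17.3, 16.6 and 18.3 CPM in the controls and 6.49 to 15.4 CPM with CM (median 8.73 CPM, log2 fold change -0.86, SE 0.244, edgeR adjusted p = 0.0256). Hbegf was at 133, 147 and 136 CPM in the controls and 85.02 to 112 CPM with CM (median 95.8 CPM, log2 fold change -0.51, SE 0.149, edgeR adjusted p = 0.0278). Both lost the call without any 1 of control replicates 1 to 3. The PDGF and VEGF list had 3 of 22 members higher and 2 lower, with 1 rise left without control replicate 3. Pdgfra, a PDGF receptor and fibroblast marker, rose from 217, 225 and 225 CPM in the controls to between 274 and 541 CPM with CM (median 426 CPM, log2 fold change 0.89, SE 0.185, edgeR adjusted p = 0.0046). It was 1 of 4 fibroblast markers that rose among the 13 tested, while 2 fell. The ligand gene Pdgfc was lower at 90.8, 86.5 and 93.3 CPM in the controls and 45.3 to 70.4 CPM with CM (median 50.99 CPM, log2 fold change -0.72, SE 0.114, edgeR adjusted p = 0.000689).

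Axon guidance genes, which also steer cell movement, had 14 of 52 members lower and 6 higher. Srgap3, a Slit-Robo GTPase-activating protein, rose from 31.8, 29.04 and 27.1 CPM in the controls to between 59.9 and 96.6 CPM with CM (median 76.8 CPM, log2 fold change 1.38, SE 0.1601, edgeR adjusted p = 9.38e-05). Plxna4, a semaphorin receptor, stood at 7.16, 9.99 and 9.34 CPM in the controls and 3.38 to 4.58 CPM with CM (median 4.11 CPM, log2 fold change -1.12, SE 0.191, edgeR adjusted p = 0.0012). Sema4f, a semaphorin, was lower at 96.3, 105 and 83.5 CPM in the controls and 33.1 to 64.02 CPM with CM (median 38.5 CPM, log2 fold change -1.07, SE 0.239, edgeR adjusted p = 0.00674). The ephrin receptor gene Epha3 fell, at 16.2, 20.9 and 22.9 CPM in the controls and 5.26 to 12.03 CPM with CM (median 8.43 CPM, log2 fold change -1.23, SE 0.269, edgeR adjusted p = 0.00611). These 4 calls held whichever library was left out, whereas the list had 4 falls without control replicate 1 and 2 rises without control replicate 3. In the cyclic AMP list 9 of 41 members fell and 4 rose. The phosphodiesterase gene Pde8a fell from 43.8, 44.3 and 43.6 CPM in the controls to between 22.02 and 31.4 CPM with CM (median 27.1 CPM, log2 fold change -0.69, SE 0.135, edgeR adjusted p = 0.00301). Pde3b, another phosphodiesterase gene, fell from 34.7, 37.2 and 41.5 CPM in the controls to between 16.6 and 25.997 CPM with CM (median 23.2 CPM, log2 fold change -0.77, SE 0.158, edgeR adjusted p = 0.00406). The kinase regulatory subunit gene Prkar2b rose from 24.1, 26.4 and 27.9 CPM in the controls to between 40.5 and 72.3 CPM with CM (median 63.1 CPM, log2 fold change 1.203, SE 0.178, edgeR adjusted p = 0.00044). That list had 4 falls and 2 rises without control replicate 1, 2 or 3.

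Mesenchymal transcription factors had 10 of 39 members higher and 6 lower. Prrx1, a factor of limb and stromal mesenchyme, stood at 507, 542 and 529 CPM in the controls and 677 to 933 CPM with CM (median 830.1 CPM, log2 fold change 0.64, SE 0.09902, edgeR adjusted p = 0.000606). Foxf1, a forkhead factor, had 3.19, 3.42 and 3.38 CPM in the controls and 6.65 to 16.2 CPM with CM (median 9.68 CPM, log2 fold change 1.64, SE 0.243, edgeR adjusted p = 0.000446). Tbx18, a T-box factor, was at 16.7, 15.97 and 20.03 CPM in the controls and 23.9 to 35.2 CPM with CM (median 29.8 CPM, log2 fold change 0.75, SE 0.124, edgeR adjusted p = 0.000958). Sox4 was lower at 405, 367 and 367 CPM in the controls and 256 to 324 CPM with CM (median 275 CPM, log2 fold change -0.42, SE 0.0752, edgeR adjusted p = 0.00164). Runx1 was also lower, at 142, 129 and 137 CPM in the controls and 84.9 to 119.9 CPM with CM (median 94.6 CPM, log2 fold change -0.45, SE 0.109, edgeR adjusted p = 0.0104), and its call was lost without control replicates 1 and 3, with an adjusted p up to 0.057 by edgeR, and the list had 2 falls without control replicate 3. Among adipogenic regulators, of which 4 of 19 rose and none fell past the test (2 rises without control replicate 1 or 3), Cebpd went from 5.71, 4.61 and 3.38 CPM in the controls to between 10.4 and 15.4 CPM with CM (median 12.1 CPM, log2 fold change 1.51, SE 0.216, edgeR adjusted p = 0.000362), and 2 members were lower at an unadjusted p under 0.05, 1 of them by DESeq2.

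**Figure D5:**
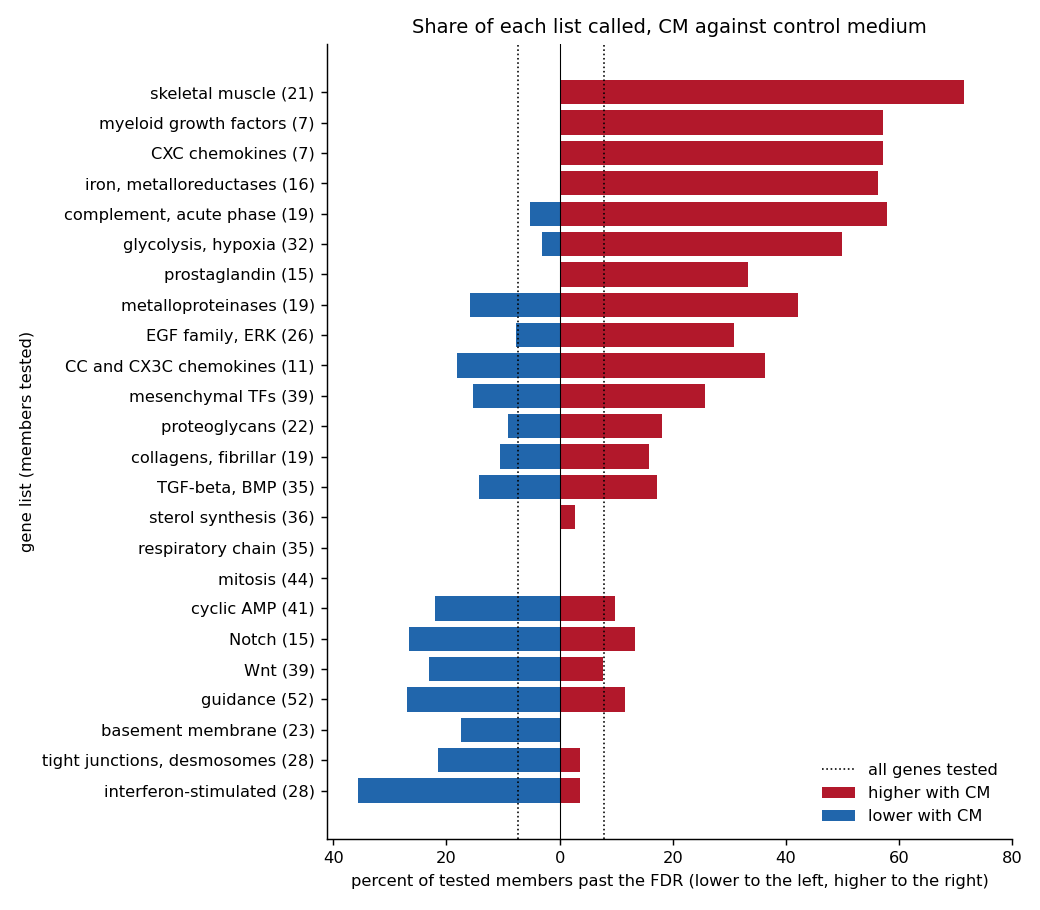
Percent of the tested members of 24 gene lists (number tested in parentheses) that rose (red, to the right) or fell (blue, to the left) with CM, with dotted lines at 7.88% and 7.28%, the shares over all genes tested. Skeletal muscle genes reach farthest to the right (15 of 21) and interferon-stimulated genes farthest to the left (10 of 28). Of the skeletal muscle genes that rose, 11 had 10 or fewer counts in every control and could pass the filter on low counts only through other libraries. Of the other 10 members 4 rose, so the length of that bar is no measure of how much of the list rose.

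Several of the genes with the largest rises, taken among well-expressed genes or among those at 100 CPM or more, belonged to none of the groups above. Fmo2, a flavin-containing monooxygenase, stood at 1.94, 1.02 and 1.42 CPM in the controls and 24.1 to 63.1 CPM with CM (median 52.5 CPM, log2 fold change 4.97, SE 0.937, edgeR adjusted p = 0.00244). Kcnq5, a voltage-gated potassium channel subunit, had 1.16, 1.11 and 1.15 CPM in the controls and 11.5 to 26.3 CPM with CM (median 15.5 CPM, log2 fold change 3.85, SE 0.386, edgeR adjusted p = 3.16e-05). Ccdc85a, a coiled-coil protein, had 1.94, 2.56 and 1.29 CPM in the controls and 15.6 to 26.3 CPM with CM (median 18.2 CPM, log2 fold change 3.35, SE 0.321, edgeR adjusted p = 3.16e-05). Gabrg3, a GABA receptor subunit, was at 0.871, 0.854 and 0.948 CPM in the controls and 2.25 to 11.7 CPM with CM (median 8.84 CPM, log2 fold change 3.14, SE 0.668, edgeR adjusted p = 0.00512). Itga4, the integrin alpha 4 chain that binds Vcam1, had 0.774, 0.683 and 0.8799 CPM in the controls and 3.36 to 14.3 CPM with CM (median 11.8 CPM, log2 fold change 3.61, SE 0.857, edgeR adjusted p = 0.00955), with an edgeR adjusted p of 0.0563 without control replicate 3. Rarres2, the chemoattractant adipokine chemerin, rose from 65.1, 63.1 and 50.8 CPM in the controls to between 134 and 245 CPM with CM (median 164 CPM, log2 fold change 1.58, SE 0.276, edgeR adjusted p = 0.00146). The predicted gene Gm2115 rose from 56.4, 59.3 and 57.1 CPM in the controls to between 162 and 270.4 CPM with CM (median 191 CPM, log2 fold change 1.805, SE 0.257, edgeR adjusted p = 0.000362). Groups that do not overlap were part of the rule that named these 7 genes. Fmo2, Kcnq5, Ccdc85a, Gabrg3 and Itga4 had control means of 1.46, 1.14, 1.93, 0.89 and 0.78 CPM. They reached a mean of 5 CPM only through the CM libraries. Rarres2 and Gm2115 were named among genes at 100 CPM or more.

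The largest fall of a well-expressed gene was that of Ptn, the heparin-binding growth factor pleiotrophin (ENSMUSG00000029838, chr6:36714929-36810220). It had 158, 168 and 195 counts in the controls and 0, 2, 10, 11, 4 and 25 counts in CM replicates 4 to 9, or 15.3, 14.3 and 13.2 CPM in the controls and 0 to 2.21 CPM with CM (median 0.521 CPM, log2 fold change -4.39, SE 0.976, edgeR adjusted p = 0.00667). Dgkk, a diacylglycerol kinase on chromosome X, stood at 184, 186 and 163 CPM in the controls and 39.7 to 72.2 CPM with CM (median 54.7 CPM, log2 fold change -1.68, SE 0.215, edgeR adjusted p = 0.000194). Nrep, a neuronal regeneration related protein, had 30.01, 23.7 and 28.6 CPM in the controls and 3.02 to 13.4 CPM with CM (median 4.38 CPM, log2 fold change -2.104, SE 0.396, edgeR adjusted p = 0.00241). St8sia2, a polysialic acid synthase, had 27.1, 25.5 and 31.7 CPM in the controls and 6.29 to 15.1 CPM with CM (median 9.18 CPM, log2 fold change -1.54, SE 0.2304, edgeR adjusted p = 0.000455). Mcam, an adhesion molecule of pericytes and endothelium, was at 106, 81.6 and 92.99 CPM in the controls and 22.7 to 47.4 CPM with CM (median 29.3 CPM, log2 fold change -1.49, SE 0.264, edgeR adjusted p = 0.00163). Ank, a pyrophosphate transporter, had 203, 215 and 216 CPM in the controls and 85.3 to 117 CPM with CM (median 92.9 CPM, log2 fold change -1.11, SE 0.159, edgeR adjusted p = 0.000362). Of the 10 endothelial and pericyte markers tested, Mcam and Rgs5 fell and Cdh5 rose, the rise not without control replicate 1 or 3. The summed level of the list was 165 to 179 CPM in the controls and 63.9 to 115 CPM with CM, while Pecam1 had at most 17 counts. The part of those cells in the fall of Mcam was not tested.

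The keratin genes Krt16 and Krt17 fell beside the lower epithelial marker level. Krt16, a keratin of stressed epithelium, stood at 41.5, 38.3 and 33.8 CPM in the controls and 5.41 to 18.3 CPM with CM (median 6.86 CPM, log2 fold change -1.94, SE 0.416, edgeR adjusted p = 0.00531). Krt17, another keratin of stressed and basal epithelium, was at 366, 310.0 and 312 CPM in the controls and 112 to 231 CPM with CM (median 127 CPM, log2 fold change -1.16, SE 0.262, edgeR adjusted p = 0.00721). Krt14 of basal epithelium was at 373, 290.5 and 319.7 CPM in the controls and 117 to 253 CPM with CM (median 172 CPM), with an edgeR adjusted p of 0.0644. The claudin, tight junction and desmosome list had 6 of 28 members lower and 1 higher, but 1 lower without control replicate 1 or control replicate 3, and 4 lower and 3 higher with the epithelial marker level in the model. With the epithelial marker level in the model, the log2 difference of Krt16 was -1.66, with an adjusted p of 0.0132 by edgeR. Krt17 is itself one of the markers in that level, so its value in this model is not given.

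Housekeeping and proliferation programs other than ribosomal protein genes showed few calls by edgeR. Of 42 DNA replication genes 1 rose, Cdt1. Its call was lost in 6 of the 9 fits that left out 1 library (edgeR adjusted p up to 0.164). DESeq2 called 8 higher and 2 lower, and 37 had a positive log2 difference, with a median of 0.12. Of 44 mitotic genes none was called and none had an unadjusted p under 0.05 by edgeR, and DESeq2 called 1 higher, with log2 differences from -0.14 to 0.29. Of 35 nuclear genes of the respiratory chain none was called by edgeR, 3 had an unadjusted p under 0.05, and DESeq2 called 1 lower, within -0.14 to 0.19. None of 20 endoplasmic reticulum chaperones was called by edgeR either, although 4 were lower at an unadjusted p under 0.05 and DESeq2 called 5 lower. Sterol and fatty acid synthesis had 1 of 36 members called by edgeR, a rise of Scap by 0.34 on the log2 scale. That call was lost without control replicate 1 or 3. DESeq2 called 1 member of this list higher and 8 lower. Ribosomal protein genes had 6 of 47 members higher, by 0.182 to 0.235 on the log2 scale, and none without control replicate 3. DESeq2 called 4 higher, 16 were higher and none lower at an unadjusted p under 0.05, and 42 had a positive log2 difference.

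Genes widely named as CAF markers went both ways. Of 23 tested, 7 rose and 3 fell. Those that rose were Saa3, Lcn2, Cxcl1, Il6, C3, Ccl2 and Ccl7, and those that fell were Cthrc1, Postn and Fap, of which 1 was left without control replicate 3. Lcn2, lipocalin 2, named after its values were seen, had 16.7, 6.83 and 11.1 CPM in the controls and 3.71 to 181 CPM with CM (median 95.97 CPM), so that its groups overlapped despite log2 fold change 3.11, SE 0.789, edgeR adjusted p = 0.014. Its call was lost without control replicate 2 or 3. Of 11 genes named with CD26+ and progenitor fibroblasts none was called by edgeR, 5 had an unadjusted p under 0.05 (2 higher and 3 lower), and DESeq2 called 1 higher and 1 lower.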

How the data were processed

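Poly(A) RNA of cultured NFs was sequenced as stranded TruSeq mRNA libraries (Illumina HiSeq and NovaSeq). The table deposited by the authors holds raw counts per gene, whole numbers with no normalization. The submitters' processing notes name HISAT2 2.1.0, HTSeq and GRCm38. The annotation release, the strand setting of the counting and the platform of each library are not given in the sources used here, so reads of overlapping or near-identical genes may be split between them. Of 55486 genes in the table, 14273 passed edgeR's filterByExpr by group. They held at least 99.85% of each library's counts.

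Counts were scaled by TMM and fitted with edgeR 4.0.16 (glmQLFit and glmQLFTest, R 4.3.3) over all 18 libraries in 4 groups. Those groups share 1 estimate of the spread. The contrast was CM (n = 6) against control medium (n = 3) of CD26- NFs, with Benjamini-Hochberg adjusted p over all genes tested. CPM values are scaled by TMM. Replicates differed by more than sampling noise, with a chi-square per degree of freedom of at least 3.03. DESeq2 1.42.0, other scalings, filters and thresholds, and the omission of each library were tried. No per-sample column was left unmapped. Some items are not reported here.

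The 56 gene lists, the rules below and the comparison itself were chosen with earlier results of these data known. Genes named are the 15 well-expressed genes with the largest and the 15 with the smallest log2 fold change, the 8 and 8 at 100 CPM or more, all past the test with groups that do not overlap, up to 4 members of each list per direction with the smallest p at 5 CPM or more, and a fixed set of markers. Genes outside this rule, among them S100a8, Csf1r, Cd68, Cxcl2, Ccl17, Il18, Gbp3 and Acta1, were named after their values were seen. Promoters (250 bases before to 50 after the start) came from RefSeq on GRCm38.p6, and 10670 of 14271 gene symbols tested matched. A total of 5 motifs were searched on both strands. Those of NF-kB and interferon were first searched in a form 1 letter longer, which matched fewer promoters. None of the 5 contains another, although the NF-kB and interferon motifs share the run TTTC, and the cyclic AMP response element (3.58% of matched genes) and the E-box CAGCTG (17.8%) are not discussed further.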

Additional observations from a re-analysis of the deposited data

Results flagged for a closer look

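For 242 genes named by the rule, the 6 CM libraries were compared for a library whose gap to its nearest neighbor, divided by the range of the group, exceeded Dixon's 95% critical value, and 10 genes met this. Chance flags about 1 in 20 such groups. CM replicate 7 was the farthest library for Il11ra1, the interleukin 11 receptor, where it was lowest with a ratio of 0.8382, for Hgf, where it was lowest with 0.6322, and for Pde7a, where it was highest with 0.635. In these 3 genes replicate 7 lay on the side of the controls. CM replicate 9 was highest for Eln (0.6425), Pcolce2 (0.6653) and Ptn (0.6265), also toward the controls. The remaining 4 genes each had another farthest library. Replicate 6 was highest for Egln3 (0.6383), replicate 8 for Myh3 (0.6465) and replicate 4 for Rfng (0.7311), and replicate 5 was lowest for Sod1 (0.6532). Each CM library had the medium of its own tumor line, so a library and a line cannot be told apart.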

How the results depend on the processing

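The 2164 calls became 2222 with only the 9 CD26- libraries in the fit, 2447 by DESeq2, 2183 and 2184 with RLE and upper-quartile scaling and 1703 without a filter on low counts. Of the 2447 by DESeq2, 1890 were genes called in the edgeR fit. At an adjusted p under 0.01 there were 830 calls, and 695 among well-expressed genes in place of 1770. With a log2 limit of 1 in place of 2, the 129 calls past the limit became 504. Leaving out 1 library gave 825 (control replicate 3) to 2748 (CM replicate 7) calls, 693 to 2268 among well-expressed genes and 89 to 147 past the log2 limit of 2. Fewer samples enter such a fit, and a control is 1 of 3 in its group while a CM library is 1 of 6. The reason why control replicates weigh more than CM replicates was not tested. With the mean log2 level of the epithelial markers as a covariate, which was added after seeing the data, the model gave 1557 calls, 1471 of them among the 2164. Of the 243 genes named, 41 lost their call with this covariate, 93 without control replicate 3 and 77 without control replicate 1, and no named gene changed direction in any setting listed here. No paired analysis was possible because each tumor line gave CM to 1 CD26- library and the controls have no line. Genes at few counts, such as Myod1 and Mymk in the controls, have folds that depend on single reads.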

Other observations

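Further groups held both directions. Of 27 ADAM and ADAMTS proteases tested 4 rose and 5 fell. Adamts9, which cleaves versican, stood at 34.3, 36.6 and 36.6 CPM in the controls and 76.6 to 147 CPM with CM (median 92.5 CPM, log2 fold change 1.502, SE 0.192, edgeR adjusted p = 0.000194). Adamts7, a protease of cartilage matrix, stood at 22.7, 21.6 and 21.3 CPM in the controls and 34.5 to 47.2 CPM with CM (median 41.1 CPM, log2 fold change 0.93, SE 0.158, edgeR adjusted p = 0.00123). Adam10, a shedding protease of Notch receptors and cadherins, fell from 241, 231 and 260.3 CPM in the controls to between 171 and 215 CPM with CM (median 180.2 CPM, log2 fold change -0.39, SE 0.0728, edgeR adjusted p = 0.00218). Adamtsl3, which lacks protease activity, fell from 13.8, 14.9 and 15.9 CPM in the controls to between 3.29 and 8.22 CPM with CM (median 4.91 CPM, log2 fold change -1.55, SE 0.273, edgeR adjusted p = 0.00154). The groups did not overlap for these 4 genes, and each kept its call when any 1 library was left out. The list had 2 rises and 2 falls without control replicate 3.

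Of 18 imprinted growth-control genes 3 rose (Dcn, Grb10 and Ndn) and 5 fell (Mest, Dlk1, Plagl1, Rian and Peg10). Grb10, an adaptor that inhibits insulin receptor signaling, had 91.2, 97.8 and 109 CPM in the controls and 124 to 274 CPM with CM (median 212 CPM, log2 fold change 1.04, SE 0.219, edgeR adjusted p = 0.00492). Mest had 9.0999, 10.2 and 10.2 CPM in the controls and 3.51 to 6.83 CPM with CM (median 5.102 CPM, log2 fold change -0.96, SE 0.202, edgeR adjusted p = 0.00461). No CM library of either gene entered the range of the controls. The falls numbered 2 without control replicate 1, 2 or 3. Among cell cycle inhibitors, D cyclins and p53 targets, of which 2 of 26 rose and 3 fell, Ccnd2, cyclin D2, rose from 504, 546 and 531 CPM in the controls to between 639.6 and 863 CPM with CM (median 669 CPM, log2 fold change 0.46, SE 0.0923, edgeR adjusted p = 0.00351). Trp53inp1, a p53 target, fell from 205, 193 and 199.9 CPM in the controls to between 92.8 and 148 CPM with CM (median 105 CPM, log2 fold change -0.81, SE 0.163, edgeR adjusted p = 0.00351). That list had 1 rise and 1 fall without control replicate 1 or 3.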
